A study of Mus musculus with 58 samples.

Results

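The genes of 3 cytokines (Il10, Il24 and Il21), of the receptors of IL-10 and IL-21 (Il10ra and Il21r) and of the transcriptional repressor Blimp1 (Prdm1) were followed through 58 RNA-seq libraries of mouse CD4+ T cells. These 6 genes, of 24028 in the table of read counts, were taken by name. The cytokines were chosen because their counts were higher in cells with a miR-17~92 transgene (TG) than in wild-type cells (WT), and the receptors and the regulator were added to them. The TG and WT values that made that choice are therefore given as a description without a test. Tests were kept for cells that lost the cluster (KO), for time and for stimulus, although the WT libraries in those tests also took part in the choice.

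The study compared 3 genotypes in 5 states. KO cells came from CD4cre.miR-17~92 lox/lox mice, in which Cre under Cd4 control deletes the cluster in T cells. TG cells came from CD4cre.Rosa26loxSTOPloxCAG-miR-17~92Tg mice, in which that recombinase cuts out a stop cassette before extra copies of the cluster driven by the CAG promoter. KO and TG cells thus share a Cre that WT cells lack, and the effect of Cre and that of the cluster cannot be told apart in a comparison with WT. Naive CD4+ T cells came from spleens and lymph nodes that were pooled from 10 male and female mice. They were used uncultured (naive state) or cultured for 24 h or 48 h with plate-bound antibodies and 50 U/ml of IL-2. Anti-CD28 was kept at 0.2 µg/ml, and anti-CD3 was given at 0.25 µg/ml, called the very weak stimulus, or at 0.5 µg/ml, called the weak one. There were 4 libraries in 13 of the 15 groups and 3 in the naive KO and naive WT groups. The age of the mice is not given in the labels. The labels do not say whether libraries of 1 group came from separate mice or cultures, so p-values measure the spread between these libraries, which may be technical.

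Library totals lay between 19.2 M and 20.8 M counts, so read counts of 1 gene can be set side by side. The cluster's hairpin gene Mir17 had 2 counts over 16 stimulated KO libraries, 57 over 16 WT and 140 over 16 TG libraries, but single libraries overlapped (0 to 2, 0 to 9 and 2 to 19). Stimulated libraries followed their labels in 2 other genes. Gt(ROSA)26Sor had 0 to 3 counts per TG library, 58 to 144 in WT and 49 to 178 in KO. Gh had 0 to 1 in WT, 44 to 186 in KO and 61 to 106 in TG libraries. The cluster's host gene Mir17hg had 37651 counts over the KO, 12340 over the WT and 13819 over the TG libraries. Markers of CD4+ T cells (6 genes, among them Cd3e and Cd4) summed to between 1812 and 5540 CPM (counts per M counts of the library, after scaling between libraries) in the naive and 48 h groups. The summed level of 10 myeloid markers was 91.1 to 321 CPM in naive libraries and 0.755 to 3.59 CPM at 48 h, where C1qa and Clec4a2 had 0 counts in all 6 groups. At 48 h 7 B cell markers summed to between 18.6 and 81.3 CPM. The sum of the T cell markers was lower in TG than in WT cells at 48 h (1897 to 2176 against 2273 to 2744 CPM under the very weak and 1812 to 2056 against 2090 to 2428 under the weak stimulus). In the 4 stimulated states added up by replicate number, Cd4 was called lower in TG cells (log2 -0.29, edgeR adjusted p = 0.0273), and with the replicate number as a block all 6 were. The part of this shift in the TG values that follow was not tested. WT libraries with replicate number 2 stood apart in Il24 and Il21, and at 48 h of the weak stimulus in Prdm1, and the Il24 and Il21 values that rest on them at 48 h are also given without them.

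IL-10 is a cytokine that restrains immune responses, and many kinds of T cell can make it. IL-24 belongs to the same cytokine family, and its gene lies near Il10. IL-21 is made mainly by activated CD4+ T cells, acts on B and T cells through its receptor and the common gamma chain, and signals largely through STAT3. Blimp1, the product of Prdm1, is a repressor that controls terminal differentiation of lymphocytes, promotes Il10 expression in several T cell types and represses Il2. MiR-17~92 encodes microRNAs that lower target mRNAs through short seed matches, most often in 3′ UTRs.

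The mature sequences of the cluster show what was deleted or added in these cells. They are printed 5′ to 3′ from RefSeq (GRCm38.p6, chromosome 14, plus strand), with the seed, bases 2 to 8, in capitals. Their 4 seeds are those of miR-17-5p and miR-20a-5p, of miR-18a-5p, of miR-19a-3p and miR-19b-3p, and of miR-92a-3p.
mmu-miR-17-5p: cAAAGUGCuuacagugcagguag
mmu-miR-20a-5p: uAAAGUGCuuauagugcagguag
mmu-miR-18a-5p: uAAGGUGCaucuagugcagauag
mmu-miR-19a-3p: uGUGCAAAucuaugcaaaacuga
mmu-miR-19b-3p: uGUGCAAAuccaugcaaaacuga
mmu-miR-92a-3p: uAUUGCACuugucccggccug

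Letters complementary to the seeds were searched in the 3′ UTRs of the 6 genes. Of 24 pairs of a gene and a seed, 1 had a match on the sense strand, in the longest protein-coding transcript of each gene (GENCODE M21, GRCm38). The match was to miR-18a-5p, at base 164 of the 381-base 3′ UTR of Il24, which lies at chr1:130882275-130882301 on the minus strand. A match to this seed was present in 2.1% of 1952 UTRs of similar length. Over the 24 pairs the share of similar UTRs with a match ran from 1.79% to 22.0%, so a UTR without a match is the more common case for every pair. The match is in capitals.
Il24 3′ UTR: gccatagatgGCACCTTtggatgctcc
The UTRs of Il21 (2578 bases) and Prdm1 (2490 bases) held none of the 4 matches, which says only that these letters are not in these UTRs.

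Il10 (chromosome 1, 131019845 to 131024970, GRCm38) had counts in every naive library and its highest levels in TG cells. Naive TG libraries 1 to 4 held 58, 43, 53 and 54 Il10 counts, against 10, 26 and 20 in WT libraries 1, 2 and 4 and 33, 27 and 19 in KO libraries 1, 2 and 4. All naive TG libraries were above all WT and KO libraries, which overlapped each other. At 24 h Il10 counts in TG cells were 29, 61, 15 and 25 under the very weak and 27, 41, 14 and 45 under the weak stimulus. The WT libraries held 6, 10, 8 and 12 under the very weak stimulus and 7, 11, 5 and 12 under the weak one. At 48 h the TG counts were 131, 310, 24 and 54 (very weak) and 124, 578, 32 and 72 (weak), against 10, 13, 6 and 9 and 12, 26, 14 and 2 in WT cells. TG and WT libraries did not overlap in any of the 5 states, while the TG libraries differed among themselves by up to 18.4-fold in CPM, in the weak 48 h group.

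On the CPM scale the mean Il10 level was 10.5 ± 13.4 CPM (SD, n = 4) in TG cells at 48 h of the weak stimulus and 0.686 ± 0.503 in WT cells. The TG difference from WT was log2 1.47 ± 0.73 (SE) in naive cells, 1.81 ± 0.73 and 1.83 ± 0.73 at 24 h and 3.77 ± 0.71 and 3.92 ± 0.69 at 48 h, for the very weak and the weak stimulus in that order. These are values of the contrast by which the gene was chosen. In the order of the 15 group means, TG groups took the first 5 places and KO cells at 24 h of the very weak stimulus the last, at 0.165 ± 0.121 CPM. No group in that order had all its libraries above those of the next, so neighbours in the order did not differ beyond their spread.

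Il24 (chromosome 1, 130882074 to 130887411) was at 0 counts in all 10 naive libraries and high at 48 h in TG cells. At 24 h TG libraries held 7, 13, 5 and 3 counts (very weak) and 4, 33, 3 and 8 (weak), WT libraries 0, 7, 0 and 0 and 3, 4, 0 and 2. KO libraries had 1 count in all at that time. At 48 h TG counts reached 1159, 2077, 159 and 341 under the very weak stimulus and 1333, 3724, 121 and 588 under the weak one. The WT counts were 5, 425, 0 and 7 and 8, 331, 3 and 35, so WT library 2 alone reached into the TG range in both 48 h states. KO libraries at 48 h held 2, 9, 0 and 1 and 7, 41, 1 and 0 counts.

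Mean Il24 levels at 48 h were 48.0 ± 45.2 and 75.0 ± 84.4 CPM (SD, n = 4) in TG cells under the very weak and the weak stimulus, 5.55 ± 10.7 and 4.81 ± 8.10 in WT cells, and 0.151 ± 0.203 and 0.620 ± 0.975 in KO cells. Against their own naive libraries, with a floor of 3 counts over the group in place of 0, Il24 was at least 1310-fold (very weak) and 2031-fold (weak) higher in TG cells at 48 h, at least 114-fold and 97.9-fold in WT cells, of which replicate 2 held most counts, and at least 3.00-fold and 12.2-fold in KO cells. These floors cover counting error only. Without replicate 2 the WT libraries held 12 and 46 counts, at least 4.17-fold and 15.9-fold above naive, with means of 0.204 ± 0.184 and 0.780 ± 0.876 CPM (n = 3). The TG difference from WT was log2 3.11 ± 1.04 and 3.96 ± 1.08 at 48 h, and 7.84 ± 1.22 and 6.58 ± 1.05 without that WT library. As with Il10, no group stood clear of the next in the order of the 15 means.

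Il21 (chromosome 3, 37222759 to 37232636) had similar counts in naive cells of the 3 genotypes: 45, 54 and 34 in WT, 51, 38 and 48 in KO, and 30, 83, 26 and 47 in TG libraries. The antisense gene Gm12534 overlaps Il21, and the sources used here do not give the strand setting of the counting, which leaves the reads of the pair not separable with certainty. At 24 h of the very weak stimulus Il21 counts were 84, 106, 26 and 64 in TG, 9, 41, 8 and 16 in WT, and 11, 17, 0 and 3 in KO cells. Under the weak stimulus they were 55, 153, 25 and 76, then 12, 47, 6 and 17, then 10, 13, 7 and 5, in the same order of genotypes. TG and WT libraries overlapped at 24 h through WT library 2.

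At 48 h Il21 counts in TG cells were 866, 1255, 218 and 375 (very weak) and 729, 1043, 135 and 551 (weak). In WT cells they were 18, 211, 16 and 18 and 36, 161, 16 and 41, and in KO cells 25, 16, 3 and 1 and 21, 36, 7 and 3. TG and WT libraries did not overlap under the very weak stimulus. Under the weak one the lowest TG library (135) lay below the highest WT library (161). The TG difference from WT was log2 0.06 ± 0.81 (SE) in naive cells, 1.89 ± 0.80 and 1.88 ± 0.79 at 24 h, and 3.38 ± 0.72 and 3.29 ± 0.72 at 48 h. Without WT replicate 2 the 48 h values were 5.29 ± 0.78 and 4.33 ± 0.73.

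**Figure D1:**
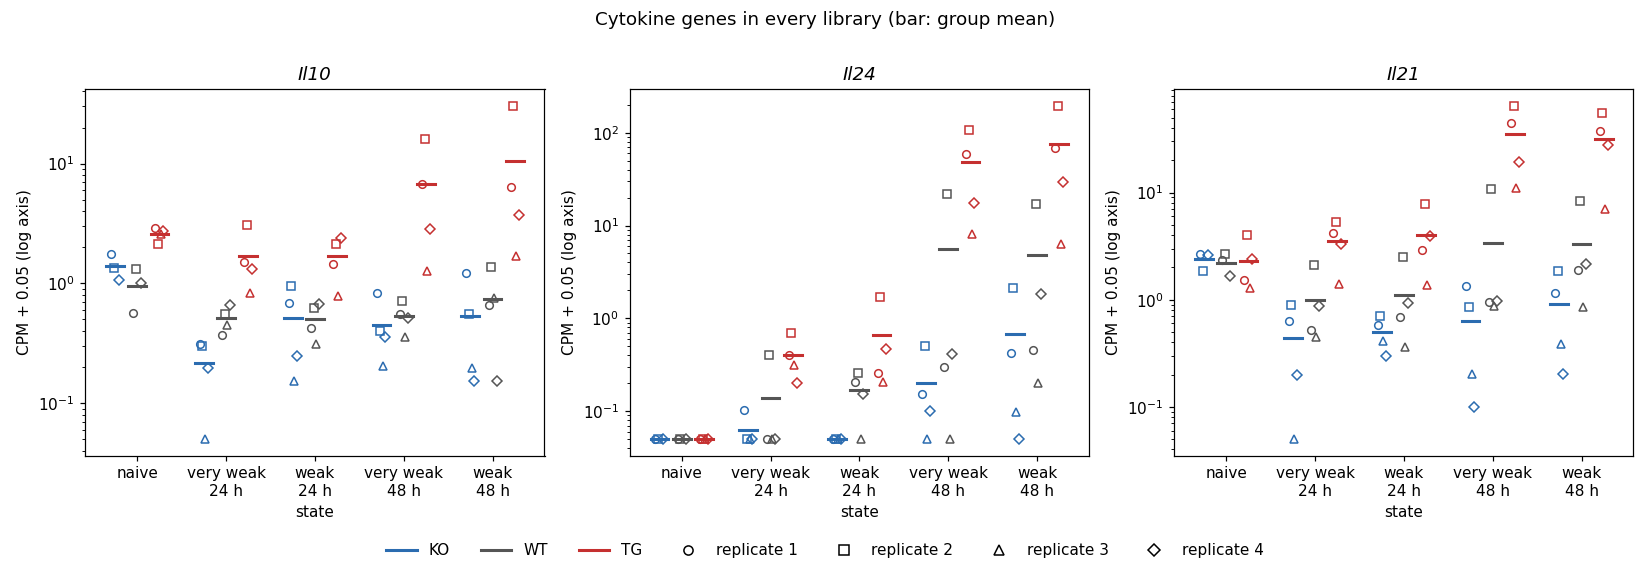
CPM of Il10, Il24 and Il21 in every library (log axis, 0.05 added to each value) by state, with color for genotype, marker shape for replicate number and a bar at each group mean. At 48 h the TG means lie highest, and the square of WT replicate 2 stands apart from the other WT libraries in Il24 and Il21, above TG replicate 3 in Il24 and, under the weak stimulus, in Il21.

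The RefSeq promoter table held 3 of the 6 genes. The 250 bases before the start of Il21 (GRCm38.p6, chr3:37232637-37232886, minus strand) are shown because NFAT and MAF are known to act on this gene in T cells. Capitals mark matches on either strand to the NFAT core GGAAA and the MAF recognition letters TGCTGA.
Il21 upstream: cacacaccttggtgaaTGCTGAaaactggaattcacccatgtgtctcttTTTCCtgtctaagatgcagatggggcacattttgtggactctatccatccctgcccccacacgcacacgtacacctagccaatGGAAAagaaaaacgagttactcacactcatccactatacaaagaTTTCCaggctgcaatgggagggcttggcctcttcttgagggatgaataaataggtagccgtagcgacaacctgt
There were 3 NFAT matches, starting 201, 118 and 74 bases before the start, and 1 MAF match at 234 bases. Of 32851 promoters, 55.6% held an NFAT match and 16.1% a MAF match in the same window, so neither is rare.

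Il10ra (chromosome 9, 45253837 to 45269149), which encodes the ligand-binding chain of the IL-10 receptor, was lower at 24 h than in naive cells and high again at 48 h. WT naive libraries held 704, 761 and 1145 counts. At 24 h WT counts were 260, 266, 276 and 209 (very weak) and 188, 245, 266 and 172 (weak), and at 48 h 1920, 2279, 527 and 1059 and 1931, 2338, 696 and 1215. Replicates 1 and 2 were thus above replicates 3 and 4 at 48 h. KO cells showed a wider gap: 2542, 2109, 212 and 344 (very weak) and 2608, 2531, 319 and 441 (weak). TG counts at 48 h were 1635, 1608, 1008 and 952 and 1911, 2273, 943 and 1253, within or near the WT range. The processed pseudogene Gm20612 and the microRNA gene Mir7086 overlap Il10ra.

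In naive cells all TG libraries (568, 736, 575 and 692 Il10ra counts) lay below all WT libraries in CPM, and after 24 h of very weak stimulation (495, 490, 334 and 309) all lay above. The TG difference was log2 -0.44 ± 0.53 in naive cells and 0.67 ± 0.51 at 24 h of the very weak stimulus. At 48 h it was -0.14 ± 0.49 and 0.06 ± 0.49, smaller than the SE. In the order of group means the 48 h groups came first (82.3 ± 32.2 CPM in TG cells under the weak stimulus), then naive, then 24 h groups. Only WT naive from TG naive cells and TG naive from the next TG group at 24 h were separated in that order without overlap, 2 of 14 neighbouring pairs.

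Il21r (chromosome 7, 125603252 to 125634397), the specific chain of the IL-21 receptor, was the member with the most counts and the narrowest spread. WT naive libraries held 6638, 6988 and 8044 counts, and WT libraries 3088, 3515, 3353 and 3489 at 24 h of the very weak stimulus. TG counts in that state were 5227, 5211, 4362 and 4659, and 5083, 5491, 4651 and 4461 under the weak stimulus, against 3122, 3553, 3310 and 3139 in WT cells. KO counts were 2569, 3177, 2802 and 3110 (very weak) and 2366, 2942, 2440 and 2920 (weak). In CPM the 3 genotypes did not overlap at 24 h in either state: TG libraries lay highest and KO libraries lowest. All KO libraries lay below all WT libraries in 3.76% (very weak) and 3.91% (weak) of all genes, and under the very weak stimulus Il10 was the other such member. Naive KO libraries (5831, 6759 and 6173 counts) also lay below WT in CPM for Il21r, as for 4.56% of genes. At 48 h the genotypes overlapped, with means of 293 ± 41.7 CPM in TG, 285 ± 63.4 in WT and 257 ± 78.8 in KO cells under the very weak stimulus.

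Prdm1 (chromosome 10, 44437174 to 44528558) stood in opposite orders of genotype in naive and stimulated cells. Naive libraries held 81, 72, 107 and 86 counts in TG, 220, 205 and 238 in WT, and 313, 320 and 280 in KO cells, with no overlap between genotypes. At 24 h TG counts were 91, 59, 43 and 47 (very weak) and 70, 49, 32 and 57 (weak), against 24, 40, 41 and 22 and 33, 32, 32 and 17 in WT cells. At 48 h TG counts were 219, 316, 42 and 113 and 203, 269, 42 and 117, against 43, 65, 27 and 33 and 40, 57, 41 and 40. TG libraries 1, 2 and 4 were above all WT libraries at 48 h, and TG library 3 was not.

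The TG difference in Prdm1 was log2 -1.36 ± 0.43 (SE) in naive cells, 0.90 ± 0.44 and 0.85 ± 0.45 at 24 h, and 2.05 ± 0.43 and 1.85 ± 0.42 at 48 h. KO naive cells, at 15.5 ± 0.656 CPM (n = 3), headed the order of the 15 group means and did not overlap with WT naive cells (10.8 ± 0.768 CPM, n = 3), the next in the order. All KO naive libraries lay above all WT naive libraries in 4.49% of all genes. At the other end were KO cells at 24 h of the weak stimulus, with 22, 15, 4 and 6 counts (0.606 ± 0.442 CPM).

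The 250 bases before the start of Prdm1 that RefSeq lists (chr10:44458749-44458998, minus strand, inside the gene's annotated span) held 1 match to the AP-1 site TGANTCA, in capitals, starting 48 bases before it. AP-1 with BATF and IRF4 is known to act on Prdm1 and Il10.
Prdm1 upstream: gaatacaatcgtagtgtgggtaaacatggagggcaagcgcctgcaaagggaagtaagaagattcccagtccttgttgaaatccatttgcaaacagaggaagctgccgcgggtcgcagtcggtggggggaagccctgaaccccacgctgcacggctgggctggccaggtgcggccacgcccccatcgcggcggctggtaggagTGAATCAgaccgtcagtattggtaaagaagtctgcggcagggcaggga
An AP-1 match was present in 6.75% of the 32851 promoters. The window before Il21r held no match to the NFAT, MAF or AP-1 letters, nor to the STAT site TTCNNNGAA (in 7.02% of promoters).

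**Figure D2:**
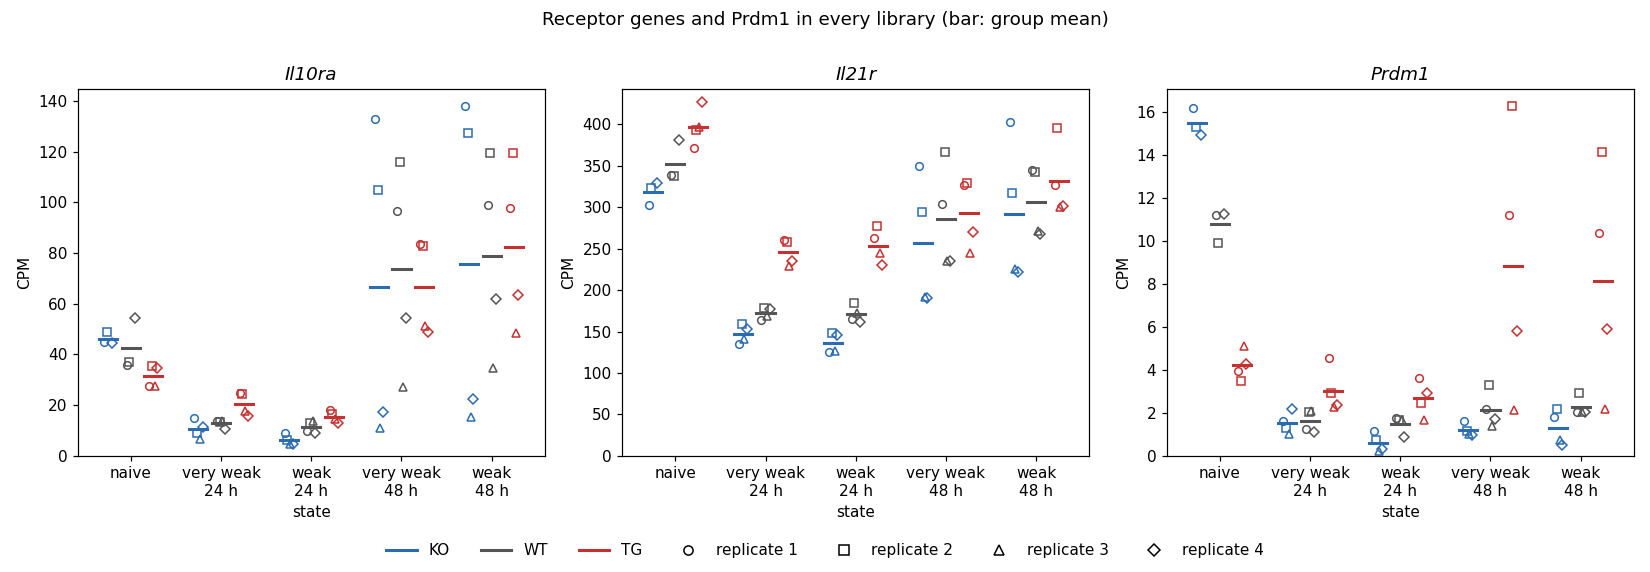
CPM of Il10ra, Il21r and Prdm1 in every library (linear axis) by state, with color for genotype, marker shape for replicate number and a bar at each group mean. Il21r is ordered TG, WT, KO at 24 h without overlap, and Prdm1 is lowest in TG among naive cells and highest in TG at 48 h.

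Across the 5 states, the libraries of TG and WT cells did not overlap for Il10 in all of them, for Il21r in both 24 h states, for Il10ra and Prdm1 in naive cells and after 24 h of very weak stimulation, and for Il21 at 48 h of the very weak stimulus. Over all 13709 genes tested, all TG libraries lay above all WT libraries in 11.1% of genes in naive cells, 6.99% and 6.56% at 24 h, and 8.45% and 6.03% at 48 h, and below them in 11.6%, 7.15%, 7.37%, 9.52% and 7.94%. Nothing is read from these counts, since the members were chosen on this contrast.

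Levels of different genes were compared per kilobase of counted length (RPKM). In TG cells at 48 h of the weak stimulus Il24 stood at 55.9 RPKM, between Il21r (99.7) and Il10ra (23.6), while Il21 was at 9.99, Il10 at 8.04 and Prdm1 at 1.48 RPKM. In WT cells in the same state Il24 was at 3.59, Il21 at 1.02 and Il10 at 0.525 RPKM, against 92.3 for Il21r and 22.5 for Il10ra. Without replicate 2 the WT values were 0.581 RPKM for Il24 and 0.496 for Il21. In these bulk libraries, fewer cells of a type and less RNA per cell cannot be told apart.

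Whether loss of the cluster changed these genes was tested with edgeR in each state. None of 29 tests (6 genes in 5 states, without Il24 in naive cells, which had 0 counts in all libraries) passed an adjusted p of 0.05, and 6 had an unadjusted p below 0.05. Over all genes, KO and WT differed in 0.0365% (naive), 1.06% and 1.4% (24 h, very weak and weak) and 4.63% and 5.04% (48 h). The lowest adjusted p-values were those of Il24 and Il21 at 48 h of the very weak stimulus, with log2 differences of -5.13 ± 1.58 (SE, adjusted p = 0.0525) and -2.53 ± 0.86 (0.0771). Under the weak stimulus they were -2.94 ± 1.28 (0.189) and -1.92 ± 0.81 (0.172). DESeq2 called both genes under the very weak stimulus (adjusted p = 0.0392 for Il24 and 0.0409 for Il21). So did edgeR without WT replicate 1 (0.0328 and 0.0481) or 3 (0.0291 and 0.0459) of that state, and for Il24 without replicate 4 (0.0456).

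Stimulated libraries with the same replicate number deviated together between KO and WT cells, so the numbers were also fitted as a block. With the block, Il24 was lower by log2 -4.49 and Il21 by -2.24 after 48 h of the very weak stimulus (edgeR, adjusted p = 0.000679 and 0.00356), and by -2.74 and -1.82 under the weak one (0.00893 and 0.0122). With the block and without every library of replicate number 2, Il24 stood at log2 -1.87 (adjusted p = 0.531) and -2.58 (0.0977), and Il21 at -0.98 (0.475) and -1.59 (0.123). In this blocked fit the calls thus ended in both states, while the differences shrank by over 1.5 times under the very weak stimulus and by less under the weak one, with fewer pairs left. Without the block and without WT replicate 2 alone, the values were -0.40 (0.963) and -0.32 (0.949) for Il24 and -0.62 (0.810) and -0.88 (0.660) for Il21. In that fit the differences of both genes shrank in both states.

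The 4 stimulated libraries of a genotype with 1 replicate number were added up into a pool, and 4 pools were tested against 4. The Il24 pools held 10, 50, 1 and 1 counts in KO and 16, 767, 3 and 44 in WT cells, and the Il21 pools 67, 82, 17 and 12 and 75, 460, 46 and 92. Of 6 genes 0 were called by edgeR and 0 by DESeq2, 2 had an unadjusted p below 0.05 (Il24 and Il21), and 5.93% of all genes were called. Il24 stood at log2 -3.75 ± 1.58 (adjusted p = 0.187) and Il21 at -1.92 ± 0.83 (0.198). With the block both were called, at log2 -3.35 and -1.76 (each with adjusted p = 0.0154), and without replicate 2 they stood at -2.44 (0.133) and -1.30 (0.124), with no call. The differences for Prdm1 (-0.70 ± 0.39, adjusted p = 0.322), Il10 (-0.48 ± 0.74, 0.748), Il21r (-0.17 ± 0.13, 0.472) and Il10ra (-0.16 ± 0.56, 0.900) did not pass the test. When the 16 stimulated libraries of each genotype were treated as separate replicates, which they may not be, and 24.4% of all genes were called, Il21 (-1.74, adjusted p = 0.00392), Prdm1 (-0.76, 0.0156) and Il21r (-0.19, 0.0482) were lower in KO cells.

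For Il10ra the comparison of KO with WT cells at 48 h varied with the replicate number. KO over WT ratios of its CPM were 1.37 and 0.906 in replicates 1 and 2 and 0.402 and 0.320 in replicates 3 and 4 under the very weak stimulus, and 1.40, 1.07, 0.445 and 0.364 under the weak one. As a description, since the division was made after these ratios were seen, the log2 difference was -1.52 and -1.34 over replicates 3 and 4 alone and 0.17 and 0.29 over replicates 1 and 2 alone, for the very weak and the weak stimulus. The labels give no batch for these numbers.

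**Figure D3:**
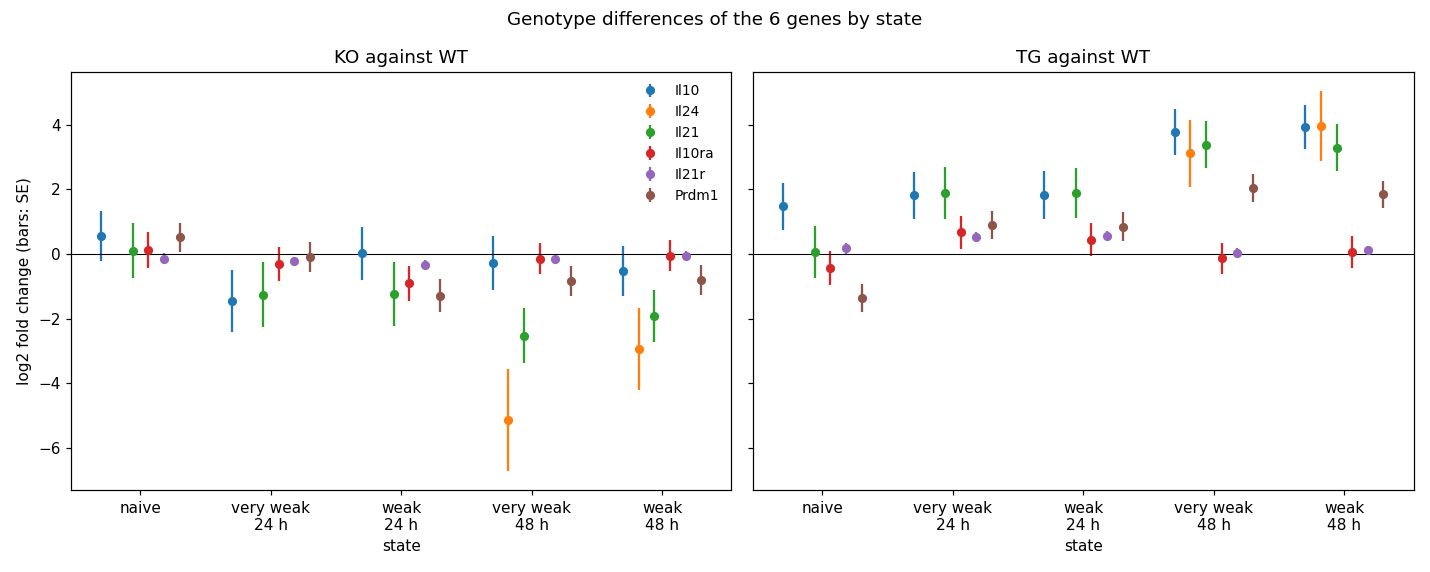
Log2 fold change of KO (left) and TG (right) against WT in each state, with SE bars, for the 6 genes. Il24 is left out of the naive and 24 h states, where counts were 0 or few. TG values of Il10, Il21 and Prdm1 are highest at 48 h, and KO values of Il21 lowest there. Il24 is drawn at 48 h only, so its values are not ranked between states. The TG values are those by which the genes were chosen.

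The KO effect itself was not shown to differ between 48 h and 24 h for any of the 6 genes (edgeR, 0 of 6 called, 0 with an unadjusted p below 0.05, 0 by DESeq2), where 0.781% of all genes were called. The adjusted p was lowest for Il21r (0.777), with a difference of log2 0.17 ± 0.15.

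From 24 h to 48 h the receptors rose in WT and KO cells. Of 24 tests of 48 h against 24 h in WT and KO cells at each stimulus, 10 passed, where 34.4% and 41.4% of all genes passed in WT and 34.7% and 45.6% in KO cells (very weak and weak), so the members' share is near that of all genes. Il10ra rose in all 4 comparisons, by log2 2.50 ± 0.52 and 2.80 ± 0.53 in WT and 2.68 ± 0.53 and 3.65 ± 0.56 in KO cells (edgeR, adjusted p at most 0.000214). The rise in KO cells under the very weak stimulus was not called with replicates 3 and 4 alone (log2 0.65, adjusted p = 0.224). Il21r rose in all 4 as well, by 0.73 ± 0.15 and 0.84 ± 0.15 in WT and 0.81 ± 0.15 and 1.10 ± 0.15 in KO cells (adjusted p at most 0.000154).

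Il24 rose from 24 h to 48 h in WT cells, from 7 to 437 counts over 4 libraries under the very weak and from 9 to 377 under the weak stimulus (edgeR, log2 5.86 and 5.29, adjusted p = 0.00786 and 0.0105). Without WT replicate 2 at 48 h the values were log2 1.13 (0.777) and 2.67 (0.307), with no call. With the replicate block and without every library of number 2 they were 5.03 (0.0610) and 3.18 (0.00832). Il24 rose in KO cells under the weak stimulus, from 0 to 49 counts, by DESeq2 (adjusted p = 0.00628) and with the replicate block (0.00681), but not in the fit without it (0.158) or with it and without replicate 2 (log2 4.47, 0.104). Il21 in WT cells stood at log2 1.82 ± 0.80 and 1.60 ± 0.79 (adjusted p = 0.0726 and 0.101), with more counts at 48 h in each of the same-numbered pairs of WT libraries. With the replicate block it was called (1.55 and 1.51, 0.00883 and 0.00753), although the numbers did not pair the WT time points by the rule used. With the block and without replicate 2 it stood at 0.66 (0.433) and 1.36 (0.0506), and without the block and without WT replicate 2 at 48 h at -0.10 (0.954) and 0.56 (0.645). Leaving out WT replicate 2 at 24 h gave a call under both stimuli (0.0355 and 0.0379), as did leaving out replicate 1, 3 or 4 at 48 h under the very weak one (0.0375 to 0.0446). Il10 and Prdm1 did not pass the test in these 4 comparisons, with log2 values from -0.36 to 1.24. In TG cells, given without a test, the 48 h levels exceeded those at 24 h by log2 2.02 ± 0.62 and 2.68 ± 0.63 for Il10, 7.06 ± 1.39 and 6.91 ± 1.32 for Il24, 3.31 ± 0.72 and 3.00 ± 0.71 for Il21, and 1.55 ± 0.41 and 1.60 ± 0.42 for Prdm1.

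The weak stimulus against the very weak one gave no call for the 6 genes in 24 tests in WT and KO cells by edgeR or DESeq2. One test, Prdm1 in KO cells at 24 h (log2 -1.33 ± 0.52), had an unadjusted p below 0.05, with an adjusted p of 0.459. Over all genes 0% were called in each of the 4 comparisons, and DESeq2 called 0 genes, while 280 and 352 genes in WT and 1217 and 514 in KO cells (24 h and 48 h) had an unadjusted p below 0.05.

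Against naive cells, Prdm1, Il10ra and Il21r were lower after 24 h of the weak stimulus. Of 23 tests of the weak stimulus against naive cells, without Il24 in KO cells at 24 h (0 counts in both groups), 10 passed, where 77.4% and 78.2% of all genes passed in WT (24 h and 48 h) and 76.4% and 75.1% in KO cells. Prdm1 fell by 2.86 at 24 h and 2.25 at 48 h on the log2 scale in WT cells, with values of -4.67 and -3.57 in KO cells (edgeR, adjusted p at most 1.23e-05). At 24 h Il10ra stood at log2 -1.90 in WT and -2.93 in KO cells (adjusted p = 0.00167 and 1.02e-05), and Il21r at -1.05 and -1.23 (8.24e-08 and 2.11e-09). At 48 h neither receptor passed the test in WT or KO cells. Il21 fell by 2.37 in KO cells at 24 h (0.0230), a value that stayed close to that (log2 -2.25, -2.25 and -2.18) but missed the threshold without KO naive replicate 1 or 4 or the weak 24 h replicate 4 (0.0526 to 0.0542). Il24 in WT cells at 48 h was called (log2 9.57, 0.00398). Without WT replicate 2 it stood at 6.95 (0.0923), and with the block and without every library of number 2 at 7.49 (0.000253). Il24 in KO cells at 48 h (49 counts against 0) was called by DESeq2 (0.00849) and with the replicate block (0.00370) but not by edgeR without it (0.157). Il10 did not pass the test in these 4 comparisons, though in KO cells it did at 24 h with the replicate block (log2 -1.41, 0.0387), where naive libraries were not paired by number, or without the weak replicate 2 (-2.09, 0.0337), and at 48 h without the weak replicate 1 (-2.41, 0.0163). Naive cells were not cultured, so the stimulus and culture cannot be told apart, and myeloid and B cell markers were also lower in stimulated libraries, whose part in the result was not tested.

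At 48 h 1 order of TG libraries was shared by several genes. In Il10, Il24, Il21 and Prdm1 replicate 2 was highest, followed by 1, 4 and 3, in both 48 h states (8 of 8 gene and state pairs). The share of all genes with this order was not counted, so nothing is read from the 8 pairs. Il21r took this order in TG cells in both states, and Il10ra under the weak stimulus. In WT cells it held for Il10, Il10ra, Il21r and Prdm1 under the very weak stimulus and for Il10ra under the weak one, but not for Il24 or Il21. The summed level of 7 regulatory T cell markers took the same order in TG cells, at 3510, 2893, 2292 and 1712 CPM under the weak and 2879, 2770, 2054 and 1800 under the very weak stimulus. In WT cells this sum took that order too, at 2050, 1930, 1871 and 1548 CPM under the weak and 1983, 1924, 1790 and 1507 under the very weak stimulus. The sum of 6 NK cell markers was also highest in TG replicate 2, at 30.9 CPM under the weak stimulus, against 6.74 to 8.20 in the other TG libraries, and at 29.5 against 9.62 to 10.8 under the very weak one. WT replicate 2 had the highest sum of these markers among WT libraries, 12.2 and 12.6 CPM. The NK cell markers did not move together. In TG against WT pools with the replicate block, Prf1 was called higher (log2 0.60, edgeR adjusted p = 0.0442). Klrd1 was higher (0.40) and Ncr1 (-0.99), Klrb1c (-0.60) and Klre1 (-0.10) were lower, none of them called. Within the list of regulatory T cell markers Il2ra, the IL-2 receptor alpha chain that activated T cells also make, was at 1219 ± 228 CPM in TG and 776 ± 69.3 in WT pools, while Foxp3, the defining factor of regulatory T cells, was lower in TG pools (4.42 ± 0.735 against 8.75 ± 1.90 CPM, edgeR adjusted p = 0.0111). With the replicate block Nrp1 was called higher in TG pools (log2 0.42, edgeR adjusted p = 0.00983) and also in KO pools (0.75, 0.00108). In TG pools Ikzf2 (0.34) and Tnfrsf18 (0.10) were higher and Capg (-0.27) and Ctla4 (-0.02) lower, none of them called. The part of regulatory T cells, NK cells or activation in the result was not tested. Within each replicate number the TG library at 48 h was above the WT library in Il10, Il24, Il21 and Prdm1 in all 4 pairs of both states. The cytokines were chosen for higher counts in TG than in WT cells, so nothing is read from these pairs.

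**Figure D4:**
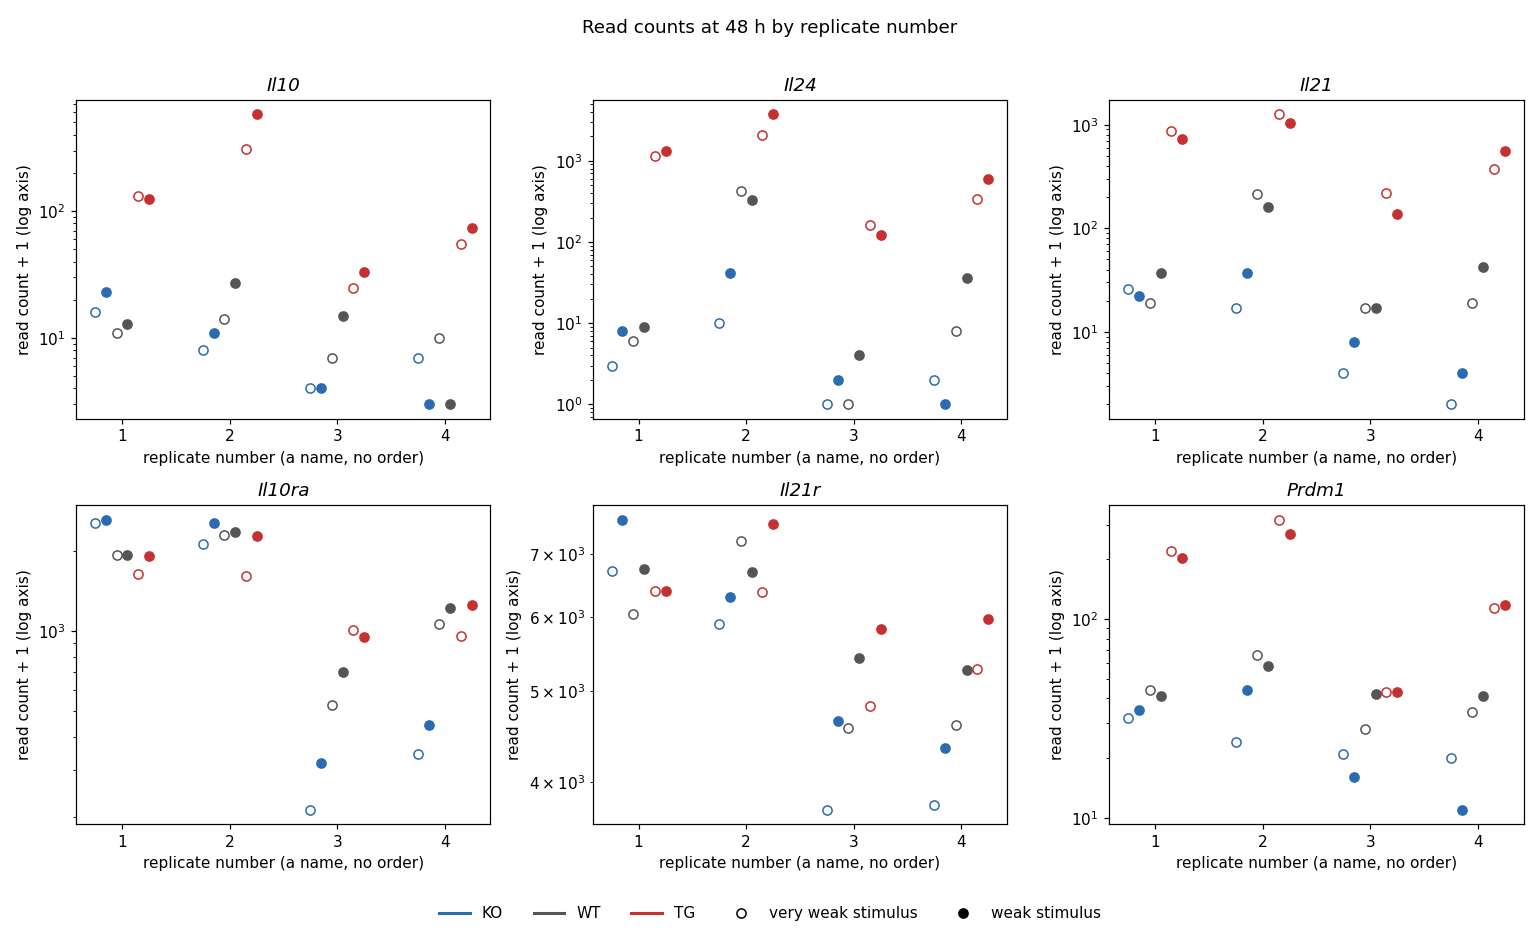
Read counts at 48 h (log axis, 1 added) by replicate number, a name without order, with color for genotype and open or filled points for the very weak or the weak stimulus. In TG cells Il10, Il24, Il21 and Prdm1 are highest in replicate 2 and lowest in replicate 3, and Il10ra of KO cells splits replicates 1 and 2 from 3 and 4.

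Intron counts, deposited as a table of their own, gave a second readout. Over 16 stimulated libraries of each genotype the median Il10 intron count was 22 in TG (16 to 74), 21.5 in WT (15 to 34) and 19 in KO cells (6 to 40), while the median full count was 43, 10 and 5. Il10 intron counts exceeded full counts in 15 of 16 stimulated WT, 13 of 16 KO and 3 of 16 TG libraries. The TG difference over pools was log2 0.40 ± 0.25 for Il10 introns against 3.27 ± 0.71 for full counts. For Il24 the values were 3.34 ± 1.11 and 3.52 ± 1.31 (6.40 ± 1.32 and 6.82 ± 1.29 without WT replicate 2), for Il21 2.25 ± 0.58 and 3.09 ± 0.79 (3.30 ± 0.56 and 4.33 ± 0.74 without it), and for Prdm1 0.87 ± 0.34 and 1.58 ± 0.38. KO and WT intron pools gave 0 calls among the 6 genes by edgeR (0 with an unadjusted p below 0.05) and 0 by DESeq2, where 0.11% of 12774 genes were called. With the replicate block Il24 introns were called lower in KO cells (log2 -3.68, adjusted p = 0.0107). With the block and without replicate 2 the value was -3.29 (0.268), and without the block and WT pool 2 it was -0.79 (0.984).

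**Figure D5:**
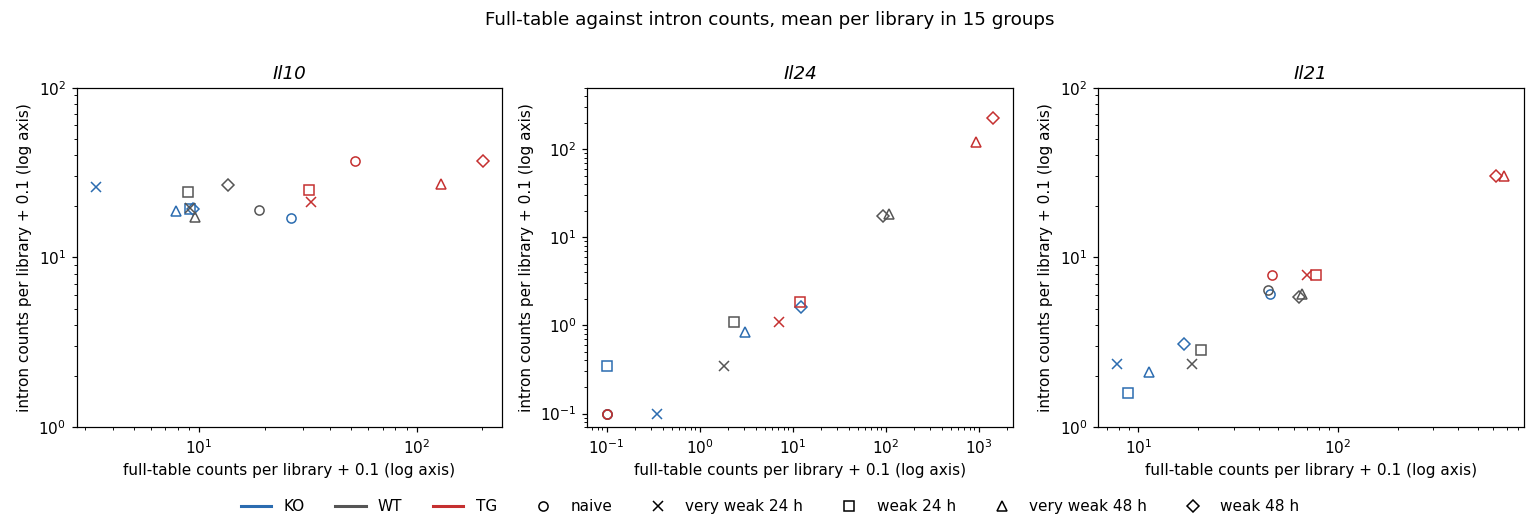
Mean intron counts per library against mean full-table counts per library (both log axes, 0.1 added) of Il10, Il24 and Il21 in the 15 groups, with color for genotype and marker shape for state. Il24 and Il21 groups with more full counts have more intron counts, whereas Il10 intron counts stay within a narrow range.

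Genes around these cytokines were counted in 7 lists (77 genes tested), over pools. TG and WT cells differed in 28 of the 77 genes, 17 higher and 11 lower in TG, where 13.6% of all genes were called. With the replicate block 50 were called, and all 28 were among them. Leaving out 1 pool gave 14 (without WT pool 4), 16 (without TG pool 2) or 17 (without TG pool 1) at the lowest. KO and WT cells differed in 6 of 77 genes (2 higher and 4 lower, all-gene share 5.93%) and in 31 with the block. The lists were chosen with earlier results of these data known. Nothing is therefore read from how these counts compare with the shares of all genes. The values that follow are without the block.

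Of the IL-10 family ligands other than the members, Il22 was higher in TG pools (59, 534, 16 and 40 counts against 17, 23, 3 and 2 in WT pools, adjusted p = 0.0329). Ifnl2 and Ifnl3 were not called without the block. With the block Ifnl3 was called lower in TG (log2 -5.395, edgeR adjusted p = 0.00377) and higher in KO cells (1.985, 0.0248). Il19 and Il20 were too low to test. The shared receptor chain Il10rb (24.9 ± 1.27 CPM in TG against 27.9 ± 4.91 in WT pools) and Il20rb were not called in TG or KO cells. Ifnl2 and Ifnl3 are near-identical copies, so reads may be split between them and their counts are uncertain. The Ifnl3 pools held 525, 148, 6 and 3 counts in KO, 78, 30, 3 and 12 in WT and 2, 0, 0 and 1 in TG cells. The list of 3 tested ligands had a median log2 difference of -2.91 in TG and 2.48 in KO cells, against -0.0074 and 0.0059 over all genes.

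Among 11 genes of IL-10 and IL-21 signalling, the kinase Jak1 was lower in TG (log2 -0.44 ± 0.07, adjusted p = 0.00183) and higher in KO cells (0.35 ± 0.07, 0.0120). The common gamma chain Il2rg (-0.28 ± 0.06) and the kinase Tyk2 (-0.28 ± 0.07) were also lower in TG cells, as was 1 further gene of the list, and Stat5a was higher (0.56 ± 0.16, adjusted p = 0.0353). The list's median was -0.08 in TG and -0.15 in KO cells. Stat3, the main factor downstream of both receptors, was not called in either.

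Of 11 upstream receptors, which bind cytokines except for the costimulatory receptor Icos, 3 were higher and 3 lower in TG cells. Il2ra (log2 0.65 ± 0.13), Il4ra (0.52 ± 0.11) and Tgfbr1 (0.40 ± 0.10) were higher. Icos (-0.44 ± 0.07), Il6ra (-0.79 ± 0.18) and Tgfbr2 (-0.27 ± 0.07) were lower, so the 2 TGF-beta receptor genes went opposite ways. In KO cells Tgfbr2 was higher (0.61 ± 0.07, adjusted p = 0.000571) and Il4ra lower (-0.60 ± 0.11, 0.0104). These 2 genes were called in opposite directions in KO and TG cells, comparisons that share their WT pools. The list's medians were 0.08 in TG and -0.23 in KO cells.

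Of 24 regulators known to act on Il10, Il21 or Prdm1, 6 were higher and 2 lower in TG cells. Maf, a direct activator of Il10 and Il21, had 367, 702, 192 and 325 counts in TG pools against 59, 143, 215 and 93 in WT pools (log2 1.63 ± 0.43, adjusted p = 0.0279). TG pool 3 overlapped with the WT pools, and replicate 2 was again the highest in TG. Gata3, the Th2 master regulator, had 4848, 5660, 2857 and 4303 counts against 1548, 2413, 1692 and 1662 (1.27 ± 0.19, 0.00177). Ahr (1.01 ± 0.21), Batf (0.80 ± 0.20) and Ikzf3 (0.61 ± 0.15) were higher too. In KO cells Irf8 (-1.16 ± 0.19, 0.00556) and Tbx21 (-0.89 ± 0.19, 0.0166) were lower, and none was called higher without the block. With the block 6 were called in KO cells, 5 lower and 1 higher (Rora, log2 0.75, edgeR adjusted p = 0.00339). The list's medians were 0.27 in TG and -0.11 in KO cells.

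Of 11 markers of type 1 regulatory T cells, which make IL-10 without Foxp3, Itga2 (log2 2.06 ± 0.47, adjusted p = 0.0146) and Tigit (0.74 ± 0.16, 0.0126) were higher and Pdcd1 (-0.43 ± 0.10, 0.0176) lower in TG cells. Havcr2 (1.15 ± 0.37, 0.0575) did not pass the test without the block but did with it (log2 1.09, edgeR adjusted p = 0.00549). No marker was called in KO cells by edgeR without the block (7 were with it). The list's medians were 0.58 in TG and -0.33 in KO cells.

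Of 15 other T cell cytokines, Il4 (log2 3.34 ± 0.42), Il13 (4.38 ± 0.82), Il5 (3.05 ± 0.64) and Ifng (2.14 ± 0.55) were higher in TG cells, and 1 gene was lower. Without the block Il4 was the gene of this list called in KO cells (-2.64 ± 0.49, adjusted p = 0.00933), with 13, 21, 9 and 7 counts against 51, 106, 35 and 121 in WT pools. Its KO pools lay below all WT pools. With the block 4 were called in KO cells, all lower: Il4, Ifng (log2 -1.64, edgeR adjusted p = 0.00168), Il13 (-2.51, 0.00719) and Lta (-0.69, 0.00265). The list's medians were 1.18 in TG and -0.02 in KO cells.

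Genes with the most similar pattern were named by the correlation of group means of log2 CPM over the 12 stimulated groups, among 9410 genes, as a description in which the groups share genotypes and libraries. Mapkapk2, a kinase gene 28730 bases from Il10, led for Il24 (Pearson r = 0.993), followed by Abhd17b, Gata3 (0.988), Kif3a and Ro60. For Il21 these were Pptc7 (0.991), the chemokine receptor gene Ccr8 (0.987), Chsy1, Rab6a and Frmd4b. Frmd4b (0.981), Fam20b, Cep76, Chsy1 and Ppp2ca were nearest to Il10, and Selenon (0.969), Irgq, Elmo2, Plcb3 and Nfatc2 to Prdm1. Among the members themselves r was 0.968 between Il10 and Il21, 0.947 between Il24 and Il21, 0.931 between Il21 and Prdm1 and 0.931 between Il10ra and Il21r. The 12 groups include the TG groups for whose high counts the cytokines were chosen. A high r between cytokines is thus in part given by that choice, and nothing is read from it.

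Neighbours of the cytokine genes differed in what they did. Within 250 kb of Il10, Mapkapk2 (log2 0.67, adjusted p = 0.00505) and Dyrk3 (0.43, 0.0199) were higher in TG pools, and the tested neighbours Pigr, Fcmr, Eif2d, Rassf5 and Ikbke were not called. Mapkapk2 was not called in KO pools (-0.22, adjusted p = 0.332). Il19, between Il24 and Il10, had 25 counts over all 58 libraries and Il20 had 0. Within 250 kb of Il21 no tested neighbour was called in TG or KO pools, among them Il2 (85.1 CPM in TG against 62.5 in WT pools, log2 0.45, adjusted p = 0.578), Cetn4 (0.61, 0.0922) and Fgf2 (0.32, 0.313).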

How the data were processed

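The authors deposited tables of counts of reads per gene, whole and not normalized, 1 called full and 1 for introns, per the file headers. The full counts do not include the intron counts. For Il10 the counted length was 1306 bases, in a gene from 131019845 to 131024970. Its intron counts exceeded its full counts in 15 of 16 stimulated WT libraries. Tools named per the submitters' processing notes are STAR 2.5.2a, FastQC 0.11.5, edgeR 3.24.3 and R 3.5, with build mm10. What program, annotation and strand setting gave the counts is not given in the sources used here. Stranded single-end poly(A) libraries were sequenced, per the labels' protocols. Of 24028 genes 23968 were named from RefSeq and 7 from GENCODE.

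Counts were tested with edgeR 4.0.16 (R 4.3.3, quasi-likelihood F test, TMM, filterByExpr) in 1 fit of 58 libraries and 15 groups (43 residual degrees of freedom, 13709 genes), in 12 pools (13567 genes) and in 12 intron pools (12774 genes), with Benjamini-Hochberg adjustment over all genes and a threshold of 0.05. All 6 genes passed these filters, Il24 through its 48 h libraries. DESeq2 1.42.0, other size factors, no filter, a replicate block and left-out libraries were alternatives. Scripts were tested on simulated data. CPM used TMM library sizes, and log2 CPM a prior count of 2.

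The replicate numbers were taken as pairing where every same-numbered pair of libraries deviated together with r over 0.1: KO with WT in the 4 stimulated states (0.134 to 0.625) and in pools (0.367 to 0.655), TG with WT in pools (0.249 to 0.546), KO at 48 h with 24 h (0.167 to 0.301), and the 2 stimuli within WT and KO (0.268 to 0.732). Naive libraries and WT time points did not meet this. The members and the gene lists were chosen with earlier results of these data known. Named genes are the members, the 5 most alike genes per cytokine and Prdm1, up to 4 genes per list and comparison by adjusted p, and neighbours within 250 kb. Maf and Stat3 were named after their values were seen. Trac was not analysed here. Reads carry no molecular identifiers, so floors cover counting error only.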

Additional observations from a re-analysis of the deposited data

Results flagged for a closer look

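In 78 checks of a gene in a group of 4 libraries, 10 libraries lay far from the other 3 by Dixon's test. Its rate of about 1 in 20 by chance assumes values with a normal spread. These were CPM values, some of few counts, and 1 count against 0, 0 and 0 gives the ratio 1. The 10 can therefore not be set against that rate. Of the 10, 7 were values of WT libraries: replicate 2 in Il24 under the very weak (0.355 CPM at 24 h, 21.6 CPM at 48 h) and the weak stimulus (16.9 CPM at 48 h), in Il21 after 48 h of very weak stimulation (10.7 CPM) and in Prdm1 at 48 h of the weak stimulus (2.91 CPM), and, on the low side, replicate 4 in Prdm1 at 24 h of the weak stimulus (0.877 CPM). Replicate 4 was also low in Il10ra after 24 h of very weak stimulation (10.65 CPM). TG replicate 2 was high in Il10 at 48 h (30.4 CPM) and in Il24 at 24 h (1.67 CPM) of the weak stimulus, and KO replicate 1 held the single Il24 count of its 24 h group (0.0525 CPM).

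In TG against WT cells 2 genes changed side between states with every library on that side. Il10ra went from log2 -0.44 ± 0.53 (SE) in naive cells to 0.67 ± 0.51 after 24 h of very weak stimulation, and Prdm1 from -1.36 ± 0.43 to 0.90 ± 0.44. Over all genes, all TG libraries lay below all WT libraries in 11.6% in naive cells and above them in 6.99% in that 24 h state. The share of genes that did both was not counted, so nothing is read from the 2. The difference between these states was not tested.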

How the results depend on the processing

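The count of members called in KO against WT cells depended on how the libraries were fitted. Over the 5 states 0 were called in the fit reported, 2 by DESeq2, 2 with replicates 3 and 4 alone, 4 with the replicate block and 0 to 2 when 1 library was left out (2 without WT replicate 1 or 3 and 1 without WT replicate 4 in the very weak 48 h state). Over pools 0 were called, 3 as an average over single libraries, 1 with replicates 3 and 4 alone and 2 with the replicate block, and in introns 0 and, with the block, 1. Of the 77 list genes, 28 were called in TG against WT pools, 50 as an average over single libraries, 50 with the block, 17 with replicates 3 and 4 alone and 14 to 27 when 1 pool was left out. No call changed its direction. Among 1877 alternative values of single genes 130 turned sign with a call in neither fit, such as Il21 introns in KO against WT pools (log2 0.10 without WT pool 2). Other size factors, no filter on low counts and a fit of only the groups compared left these counts of members at 0. Over all genes, KO and WT pools differed in 805 genes, in 2630 with the block, 3349 as an average, 1402 by DESeq2, 17 with replicates 1 and 2 alone and 296 with 3 and 4 alone, and TG and WT pools in 1840, 3972 with the block, 4634 as an average, and 754 and 555 with those pairs alone. At 48 h the 2 groups alone gave 26 (very weak) and 74 (weak) genes against 635 and 691, and the block 1145 and 1193. At 24 h the block gave 350 and 436 against 145 and 192, DESeq2 247 and 319. Leaving out 1 library gave 2 (without KO replicate 1) to 20 (without KO replicate 2) genes in naive cells, against 5 with all. Under very weak stimulation the ranges were 68 (KO replicate 4) to 223 (KO replicate 1) at 24 h and 327 (WT replicate 2) to 1281 (KO replicate 3) at 48 h. Under weak stimulation they were 110 (WT replicate 1) to 210 and 355 (WT replicate 2) to 776. In pools they were 408 (WT pool 4) to 894 for KO and 960 (WT pool 4) to 1435 for TG, in introns 5 (KO pool 4) to 15, and for the KO effect 58 (WT weak 48 h replicate 2) to 315 (KO very weak 48 h replicate 3). In introns 14 became 288 with the block and 86 by DESeq2, and for the KO effect at 48 h against 24 h, 107 became 206 and 189. In KO cells at 24 h, the 2 stimuli differed in 58 genes without replicate 1 of the very weak one and in 0 with it. Naive libraries were not paired by number. Divisions by replicates 1 and 2 or 3 and 4, and the block without replicate 2, were chosen after seeing the data. The cause of these changes was not tested. Il10 and Il24 counts under about 10 per library limit the precision at 24 h.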
